A study of Homo sapiens with 6 samples.

Results

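The carboxypeptidase A genes lie side by side on the long arm of human chromosome 7, in band 7q32, and the genes described here are CPA1, CPA4 and CPA5 of that cluster together with their neighbours CEP41, MEST, COPG2, TSGA13 and KLF14. These 8 genes were taken from 58051 Ensembl genes in the count tables by symbol and position. CPA1 and CPA5 were picked because they rose from next to nothing in the same comparison that is described here, so their values are given as a description with no test, and the other members were listed for their place beside them. The question was whether the rise along the locus was limited to CPA1 and CPA5.

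The libraries came from A172, an established human glioblastoma cell line, made into stable lines with a lentiviral plasmid expressing either GFP, as control, or RBFOX1, with 3 biological replicates of each. RBFOX1 is a neuronal RNA-binding protein that regulates splicing and mRNA stability. All groups share the parental line and the viral transduction, and the RBFOX1 level is that of an ectopic construct. Total RNA was rRNA-depleted and sequenced as stranded paired-end libraries, and read pairs were counted per gene on GRCh38. Counts on genes ranged from 12128602 to 23249221 in GFP and from 7433414 to 14915861 in RBFOX1 libraries. RBFOX1 itself had 4, 0 and 1 counts in the GFP and 10276, 16467 and 21451 counts in the RBFOX1 replicates. Values are given as TMM-normalized counts, that is counts scaled to the mean effective library size. A library with no count of a gene could still hold up to 3 counts, worth 1.82 to 3.50 normalized counts in the GFP and 2.74 to 5.44 in the RBFOX1 libraries, and such limits cover counting error only. Genes were tested with the quasi-likelihood method of edgeR, p-values were adjusted after Benjamini and Hochberg over the 20536 genes that had 10 or more counts in all, and the threshold was 0.05. GFP replicate 1 was the deepest library and differed most from the other GFP replicates, where the chi-square over genes, divided by its degrees of freedom, was 8.90 and 9.07, compared with 1.66 between GFP replicates 2 and 3.

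Carboxypeptidases of the A type are zinc enzymes that remove the last amino acid of a protein or peptide when it is aromatic or aliphatic. They are made as inactive proenzymes and secreted. CPA1 is a classical digestive enzyme of the exocrine pancreas, where acinar cells store it with trypsinogen and other zymogens, whereas CPA4 and CPA5 were named later for their sequence and are found outside the digestive tract. The locus is also known for genomic imprinting, since MEST is expressed from the paternal copy and KLF14 and, in some tissues, CPA4 from the maternal copy.

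On GRCh38, CPA4, CPA5 and CPA1 follow each other along the plus strand of chromosome 7, with CPA4 at 130293134 to 130324180, CPA5 at 130344816 to 130368730 and CPA1 at 130380339 to 130388114. The gaps between them measured 20635 and 11608 bp. CEP41 (130393771 to 130442433) lies 5656 bp past the end of CPA1 on the minus strand, so that the 3' ends of both genes face each other. MEST (130486171 to 130506465) is on the plus strand and overlaps the end of COPG2 (130506238 to 130668748, minus strand) by 228 bp. COPG2 in turn overlaps TSGA13 (130668643 to 130687432) by 106 bp on the same strand, where reads cannot be assigned to either gene. KLF14 (130730697 to 130734207, minus strand) closes the series.

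**Figure D1:**
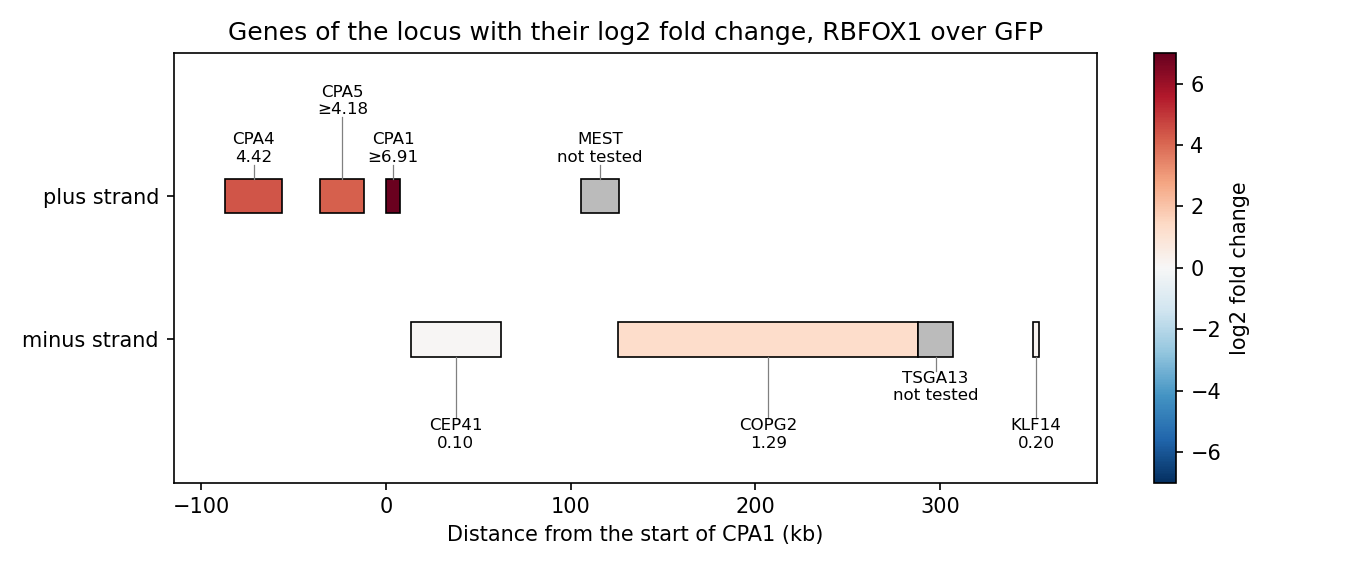
Map of the CPA genes and their neighbours, with distance from the start of CPA1 in kb on the horizontal axis and strand on the vertical axis. Boxes are drawn to scale and coloured by the log2 fold change of RBFOX1 over GFP cells, which is printed under each name; grey boxes had too few counts to be tested. The 3 strongly coloured boxes, CPA4 at 4.42, CPA5 at 4.18 or more and CPA1 at 6.91 or more, stand next to each other, and CEP41 beside them is at 0.10.

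The rise was not limited to CPA1 and CPA5. CPA4, next to CPA5, rose 21.4-fold from a level that was already well measured in GFP cells, and COPG2, whose nearer end lies 126 kb past the start of CPA1, rose 2.44-fold. CEP41, the gene next to CPA1, and KLF14, the farthest member, did not pass the threshold. MEST stayed at a few counts, and TSGA13 had no count in any library. Of the 8 members, 6 had enough counts to be tested. Of these, 4 passed the threshold as higher in RBFOX1 cells and 0 as lower, a count that includes CPA1 and CPA5, for which the members were chosen. Leaving these out, 2 of the 4 remaining tested members were higher. Over all genes tested, 23.7% were higher and 22.9% lower (edgeR). CPA4 and COPG2 had every RBFOX1 library above every GFP library, as did 26.9% of all genes tested, whereas CEP41 and KLF14 overlapped.

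CPA1 had no count in any GFP library and 168, 297 and 423 counts in the RBFOX1 replicates. After normalization these were 305, 330 and 386, a mean of 340 ± 41.8 normalized counts (SD, n = 3). All RBFOX1 libraries were far above the limit that a count of 0 allows, and the replicates lay close together. Against 3 counts in each GFP library, CPA1 was at least 120-fold higher in RBFOX1 cells. Of the 80 tested genes without a count in any GFP library, CPA1 had the highest mean in RBFOX1 cells. These genes reached the test through their RBFOX1 counts alone, and CPA1 was picked for this rise. Its rank is therefore a description that lends the rise no support, and it takes no account of gene length.

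CPA5 had 2, 0 and 1 counts in the GFP and 25, 56 and 51 counts in the RBFOX1 replicates. Its normalized counts were 45.3, 62.2 and 46.6 in RBFOX1 cells, a mean of 51.4 ± 9.38 (SD, n = 3), compared with 0.756 ± 0.660 (SD, n = 3) in GFP cells. The groups did not overlap. Against 3 counts in each GFP library, it was at least 18.2-fold higher. CPA1 exceeded CPA5 by a factor of 6.72, 5.30 and 8.29 in RBFOX1 replicates 1, 2 and 3, on the scale of counts per gene.

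CPA4, a secreted carboxypeptidase that has been found in tumours of several tissues, had 697, 326 and 380 counts in the GFP and 4961, 7801 and 9067 counts in the RBFOX1 replicates. Its normalized counts were 423, 381 and 400 in GFP and 8999, 8661 and 8279 in RBFOX1 cells. The means were 401 ± 21.2 and 8646 ± 360 (SD, n = 3 each), so that the gap between the groups was many times the spread within either. On the log2 scale this was a change of 4.42 with a 95% interval of 4.29 to 4.55 (SE 0.0602, adjusted p = 7.88e-21, edgeR). Under all alternatives, including each replicate left out in turn, it lay between 4.38 and 4.47. Of 12012 tested genes whose mean over all libraries reached 50 normalized counts, 27 had a log2 fold change at least as large, CPA4 included. These 27 also include genes near 0 in GFP cells, among them CPA1 and RBFOX1 itself, whose fitted folds are not well measured.

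**Figure D2:**
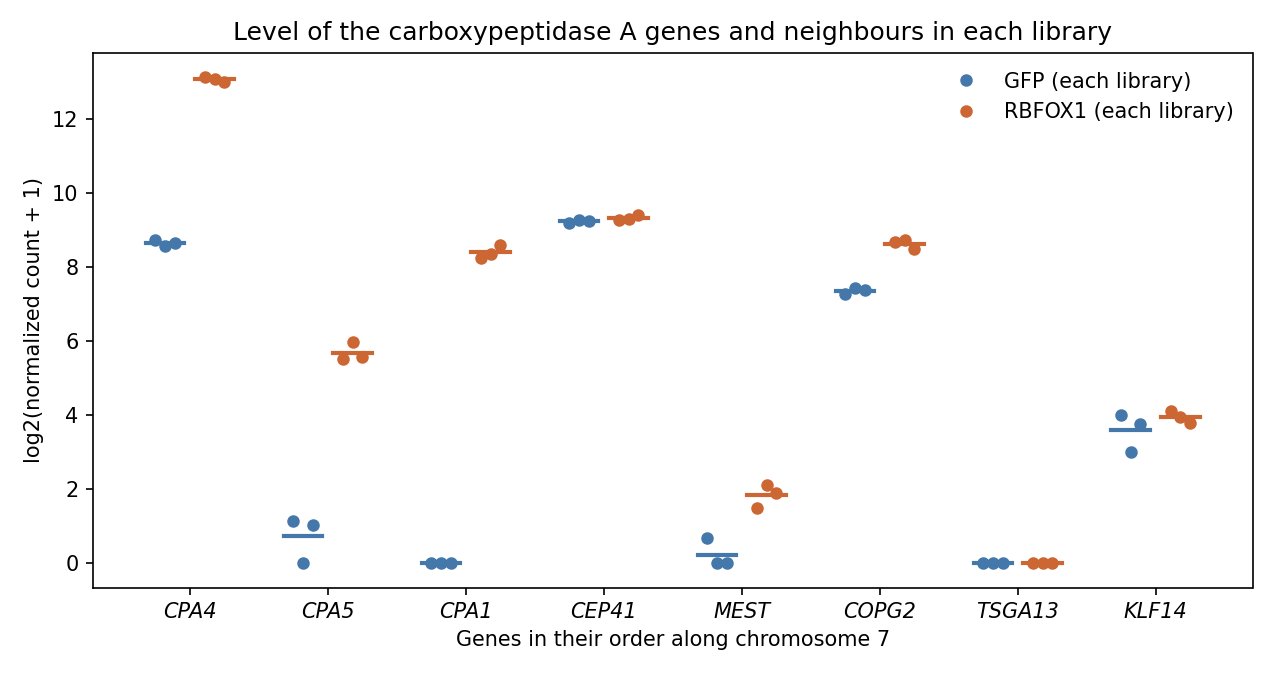
Level of each gene in each library, as log2 of the normalized count plus 1, with genes in their order along chromosome 7 on the horizontal axis. Blue points are the 3 GFP and orange points the 3 RBFOX1 libraries, and bars are the means of each group. CPA4, CPA5, CPA1 and COPG2 are apart between groups, CEP41 and KLF14 overlap, MEST lies below 3 on this scale in every library, and TSGA13 is at 0.

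Downstream of CPA1 the next gene is CEP41, whose 3' end lies 5656 bp past it and whose 5' end lies farther off, at 130442433. CEP41 encodes a centrosomal and ciliary protein needed for the glutamylation of tubulin. It had 963, 531 and 574 counts in the GFP and 341, 564 and 744 counts in the RBFOX1 replicates, or 585, 620 and 605 against 619, 626 and 679 normalized counts. The groups overlapped. The means were 603 ± 17.8 and 641 ± 33.1 (SD, n = 3 each), and the log2 fold change was 0.097 with an SE of 0.0658 (adjusted p = 0.249, edgeR). The 95% interval of -0.040 to 0.24 bounds any rise of CEP41 well below those of CPA4 and COPG2, whose intervals it does not reach.

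MEST, an imprinted gene for a protein of the alpha/beta hydrolase fold, had 1, 0 and 0 counts in the GFP and 1, 3 and 3 counts in the RBFOX1 replicates. All of these are at or under 3 counts, so no fold is given. When genes down to 1 count were admitted it did not pass the threshold (adjusted p = 0.0816, edgeR). Of its 31-base words, 7.81% also occur in transcripts of other genes, mostly the pseudogene MESTP1. TSGA13, named for its expression in testis, was at 0 counts in all 6 libraries.

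COPG2 encodes a gamma subunit of the COPI coat, which carries vesicles from the Golgi apparatus back to the endoplasmic reticulum. It had 253, 148 and 157 counts in the GFP and 227, 386 and 391 counts in the RBFOX1 replicates. After normalization, GFP libraries held 154, 173 and 165 and RBFOX1 libraries 412, 429 and 357, without overlap. Means were 164 ± 9.71 and 399 ± 37.4 (SD, n = 3 each). The rise of 1.29 on the log2 scale had a 95% interval of 1.09 to 1.48 (SE 0.0938, adjusted p = 5.76e-10, edgeR). A change of this size was less unusual than that of CPA4, since 446 of these 12012 genes rose by as much or more, COPG2 included.

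KLF14, a Krüppel-like transcription factor gene without introns, had 25, 6 and 12 counts in the GFP and 9, 13 and 14 counts in the RBFOX1 replicates. Its means of 11.6 ± 4.18 and 14.5 ± 1.77 normalized counts (SD, n = 3 each) overlapped. The estimate of 0.20 on the log2 scale had a 95% interval from -0.50 to 0.90 (SE 0.336, adjusted p = 0.670, edgeR). At this depth, these limits leave room for a fall as well as a rise of KLF14, and without GFP replicate 2 the estimate was -0.010.

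Levels were compared between genes only per kb of exon, using the union of annotated exons. In GFP cells, CPA4 stood highest with 101 ± 5.36 normalized counts per kb (SD, n = 3), followed by CEP41 with 42.8 ± 1.26 and COPG2 with 39.6 ± 2.35, whose libraries overlapped. KLF14 came next with 3.31 ± 1.19 normalized counts per kb, and the remaining members lay at or near 0. In RBFOX1 cells, CPA4 reached 2185 ± 90.9 and CPA1, with 120 ± 14.7 normalized counts per kb, moved to the second place. COPG2 at 96.4 ± 9.04, CEP41 at 45.5 ± 2.35, CPA5 at 17.3 ± 3.16 and KLF14 at 4.13 ± 0.505 normalized counts per kb followed, and no neighbours in this order overlapped. MEST was at 0.551 ± 0.160 normalized counts per kb, from a few counts. The mean of CPA1 per kb in RBFOX1 cells was 120 normalized counts, next to 101 for CPA4 in GFP cells.

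Related genes could exchange reads where their sequences are the same, and this was measured on GENCODE transcripts. Over the coding sequence, CPA4 and CPA1 were identical at 62.4% of aligned positions, CPA4 and CPA5 at 59.9% and CPA5 and CPA1 at 65.9%. CPA4 shared no word of 31 bases with any other CPA gene. CPA1 and CPA5 shared 5 such words, which is 0.172% of those of CPA1 and 0.156% of those of CPA5. Of the 31-base words of COPG2, 1.84% occurred in another gene, most of them in the stretch common with TSGA13.

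Because RBFOX1 binds TGCATG in RNA, the 3' UTRs of the members were searched for these letters on the sense strand. None was found in the canonical 3' UTR of CPA4 (1504 nucleotides), CPA5 (133), CPA1 (97), COPG2 (438), MEST (1409) or TSGA13 (371). Among protein-coding genes with a canonical 3' UTR within 20% of that of CPA4 in length, 35.2% held at least 1, whereas for the lengths of CPA1 and CPA5 these shares were 1.69 and 3.07%. The members that held the letters were CEP41, with 3 in 5120 nucleotides, and KLF14, with 1 in 2365, where 78.3 and 52.2% of 3' UTRs of like length held them. Both are tested members that did not pass the threshold. Their sites are shown 5' to 3' on the minus strand with 12 bases on either side, and capitals mark the 6 letters searched for. In CEP41 they begin 683, 2192 and 3831 nucleotides past the stop codon, at chromosome 7 positions 130398203 to 130398208, 130396694 to 130396699 and 130395055 to 130395060, and in KLF14 683 nucleotides past it, at 130732374 to 130732379.
CEP41, first site: gccagaaaggtaTGCATGtgggtgtcttca
CEP41, second site: taatctgcgtttTGCATGttaagtgttaat
CEP41, last site: aacaggattcggTGCATGattttatgtgtt
KLF14: tgcaggtcctgtTGCATGatttggaaccct

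Promoters were compared because CPA4 and CPA1 rose together from different starting levels. RefSeq promoter sequences (GRCh38.p14, 250 bases before to 50 after the start) were held for CPA4, CPA1, CEP41, MEST, COPG2, TSGA13 and KLF14, and not for CPA5. The letters searched on both strands were TATAAA (the TATA box), TGANTCA (the AP-1 motif), CACCTG (an E-box, the motif of basic helix-loop-helix factors) and TGCATG. The promoter of CPA4 held TATAAA on both strands, in overlapping positions 28 and 30 bases before the RefSeq start, and TGANTCA at 48 and 15 bases before it. The promoter of CPA1 held none of these and CACCTG 87 bases before its start. Over 35116 promoters, 11.5% held TATAAA, 7.71% TGANTCA, 20.6% CACCTG and 9.46% TGCATG. The promoters of MEST, which has several annotated starts, held TGANTCA and TGCATG, and those of CEP41, COPG2, TSGA13 and KLF14 held none of the 4. The 150 bases before the RefSeq starts of CPA4 and CPA1 are shown. The RefSeq starts lie downstream of the GENCODE gene starts given above, so that all of the CPA1 stretch and the end of the CPA4 stretch fall within the GENCODE genes. The stretches are chr7:130293011-130293160 and chr7:130380344-130380493 on the plus strand, with matches in capitals.
CPA4: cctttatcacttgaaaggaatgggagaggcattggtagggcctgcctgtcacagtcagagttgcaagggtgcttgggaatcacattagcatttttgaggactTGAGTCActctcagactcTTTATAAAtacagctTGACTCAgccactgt
CPA1: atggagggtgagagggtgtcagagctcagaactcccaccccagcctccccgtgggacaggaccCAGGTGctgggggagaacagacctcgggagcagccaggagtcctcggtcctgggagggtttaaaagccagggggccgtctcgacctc
These promoters thus differ in the letters they hold, and a match is a description of the sequence only.

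To see how far the change extended, all annotated genes whose lower coordinate lay within 1 Mb of that of CPA1 were taken. Of these 54 genes, 21 were tested, and 17 had no count in any library. Leaving out CPA1 and CPA5, 5 of 19 tested genes were higher (26.3%) and 3 lower (15.8%), with a median log2 fold change of 0.097 compared with 0.0051 over all genes tested. On chromosome 7 as a whole, 22.1% of 973 tested genes were higher and 26.1% lower. Only CPA4 and COPG2 of these 19 rose with a log2 fold change of at least 1, or 10.5%, a size reached by 8.23% of all genes tested. The others that passed are named although they changed by less, after their values were seen. KLHDC10 (130070534 to 130135705) rose by 0.74 on the log2 scale (95% interval 0.63 to 0.85), NRF1 by 0.45 and UBE2H by 0.23. STRIP2 had a log2 fold change of -0.96, the long noncoding RNA gene LINC-PINT of -0.86 and MKLN1-AS of -0.68. MKLN1-AS had an adjusted p of 0.0460 (edgeR), which was between 0.0611 and 0.155 without GFP replicate 1 or 2 or RBFOX1 replicate 1 or 3.

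On the other side of the cluster, the nearest tested gene was TMEM209 (130164713 to 130207770, minus strand), which encodes a transmembrane protein. It had 773, 439 and 438 counts in the GFP and 283, 451 and 571 counts in the RBFOX1 replicates. Its log2 fold change of 0.093 did not pass (95% interval -0.052 to 0.24, adjusted p = 0.300, edgeR). SSMEM1, which overlaps the start of TMEM209 on the plus strand, was at 0 in the GFP libraries and at 1, 2 and 2 counts in the RBFOX1 libraries, within the limit of 3 counts. The intervals of TMEM209 and CEP41 lay below that of CPA4 by over 4 on the log2 scale.

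**Figure D3:**
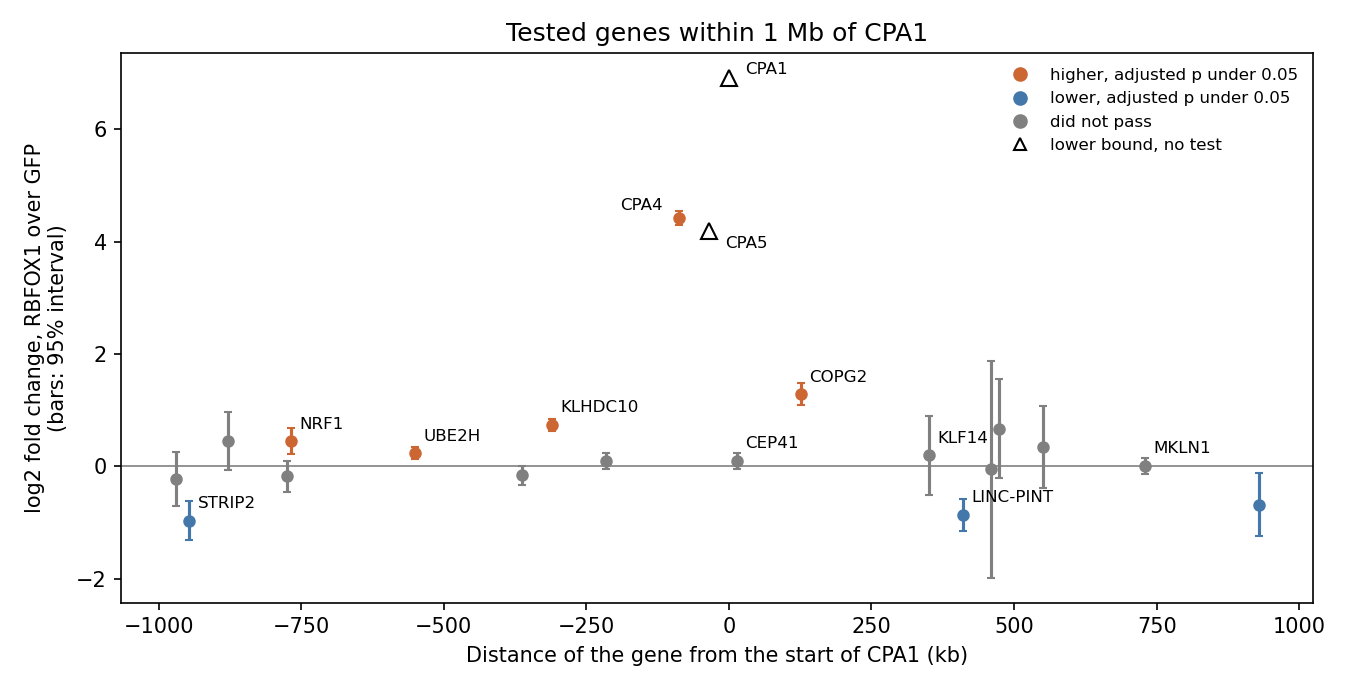
Change of the 21 tested genes within 1 Mb of CPA1, with the distance of each gene's lower coordinate from that of CPA1 in kb on the horizontal and the log2 fold change of RBFOX1 over GFP cells on the vertical axis. Bars are 95% intervals, colours mark genes past the threshold, and triangles are the lower bounds of CPA1 and CPA5. CPA4, CPA5 and CPA1 stand above 4, COPG2 is at 1.29, and every other gene lies between -0.96 and 0.74.

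Other genes of the carboxypeptidase family were compared from a list of 24, made of the A, B, E, D, M, N, X and Z carboxypeptidases, the cytosolic enzymes that shorten tubulin tails and the inhibitor gene LXN. Of these, 12 could not be tested, and 11 of the list had at most 3 counts in every library. Of the 12 tested, 5 were higher, 2 lower and 5 did not pass, with CPA1, CPA4 and CPA5 among those that were higher, of which CPA1 and CPA5 were chosen for their rise. Outside the cluster, 2 of 9 tested genes were higher and 2 lower, or 22.2% each, beside 23.7 and 22.9% of all genes tested. The median log2 fold change of the 9 was 0.67, or 0.61 when each gene with no GFP library above 3 counts was set to its bound, beside 0.0051 over all genes tested. AEBP1 and CPZ, which are among the 9, had too few counts in GFP cells for a fold other than a bound. CPE, the enzyme that trims neuropeptides and hormones in secretory granules, had 397, 218 and 223 counts in the GFP and 336, 565 and 664 counts in the RBFOX1 replicates. It rose from 244 to 614 normalized counts, or by 1.34 on the log2 scale (SE 0.0725, adjusted p = 5.96e-12, edgeR), without overlap. AEBP1, whose product is a collagen-binding matrix protein of this family, went from no count in any GFP library to 5, 7 and 12 counts and was at least 3.28-fold higher. AEBP1 reached the test through its RBFOX1 counts alone, so its place among the 2 higher genes outside the cluster is a description only. CPD, a carboxypeptidase of the trans-Golgi network, fell from 5584 to 3487 normalized counts (log2 fold change -0.68, SE 0.0488, adjusted p = 4.81e-10, edgeR). AGBL5, which acts on tubulin, changed by -0.48 on the log2 scale (SE 0.0602, adjusted p = 1.33e-06, edgeR). CPA3, CPA6, CPB1 and CPB2, the other A- and B-type genes, lay on other chromosomes and had at most 3 counts in every library.

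**Figure D4:**
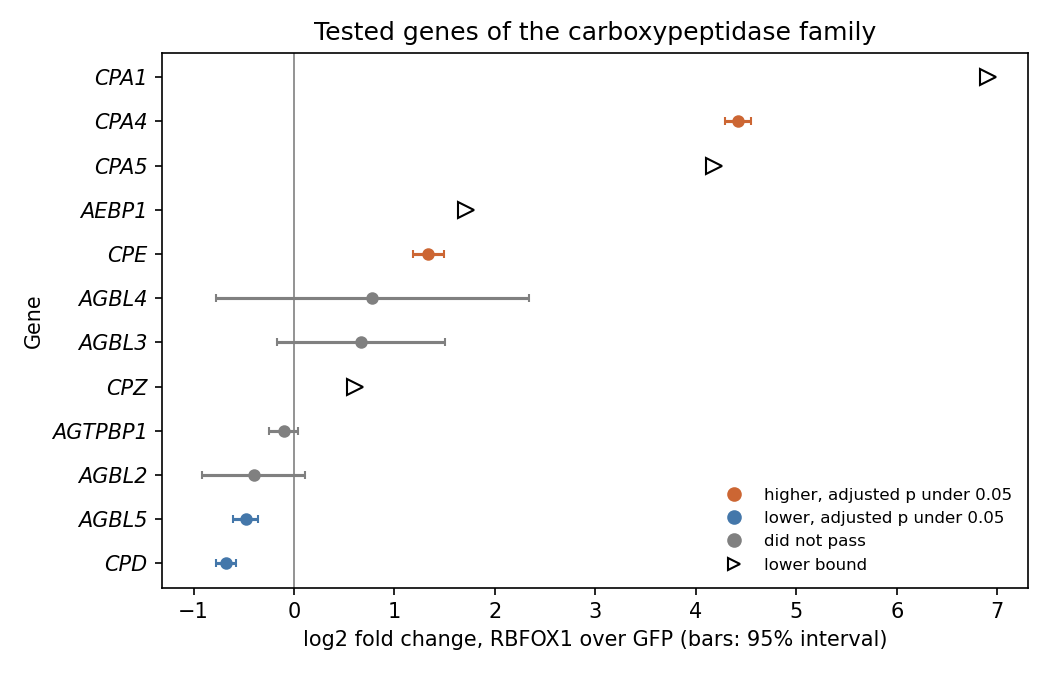
Log2 fold change of RBFOX1 over GFP cells for the 12 tested genes of the carboxypeptidase family, with bars for 95% intervals. Triangles are lower bounds of genes with 3 counts or fewer in every GFP library, and of these CPZ did not pass the threshold. The 3 genes of the cluster lie above all others, at 4.18 or more.

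As CPA1 is an enzyme of pancreatic acinar cells, a list of 30 acinar secreted proteins was examined as well. CPA1 and CPB1 are among the genes it shares with the family list. Of its genes, 17 had no count in any library, among them the chymotrypsinogens CTRB1 and CTRB2, the elastase genes CELA2A and CELA3A, the lipase gene PNLIP, its cofactor gene CLPS and the granule protein gene GP2. Only 6 were tested, of which 2 were higher and 2 lower, and CPA1 is one of those that were higher. Besides CPA1, the gene that was higher was CUZD1, a zymogen granule membrane protein gene on chromosome 10, which was at 0 in every GFP library, reached 76, 112 and 121 counts in the RBFOX1 replicates and was at least 43.9-fold higher. Both CPA1 and CUZD1 reached the test through their RBFOX1 counts alone, so the count of higher genes in this list is a description only. SPINK1, the trypsin inhibitor gene, fell from 75.4 to 10.9 normalized counts, or by -2.77 on the log2 scale (SE 0.257, adjusted p = 2.06e-08, edgeR). The trypsinogen gene PRSS3 had a log2 fold change of -2.56 (SE 0.282, adjusted p = 2.38e-07, edgeR), a value that is uncertain because trypsinogen genes are near-identical copies. Summed over the list, the normalized counts ranged from 123 to 192 in GFP and from 475 to 551 in RBFOX1 libraries. Without CPA1, the range in RBFOX1 libraries was 164 to 184, inside that of the GFP libraries. Of 8 transcription factor genes of acinar cells, 5 were tested, of which 0 were higher and 2, GATA4 and XBP1, lower. The defining factors PTF1A and RBPJL, and BHLHA15, were at 0 counts in every library.

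The labelled cell type was checked against its markers. Of 8 glial and glioblastoma markers, VIM, NES, CD44, SOX2 and OLIG2 were measured in every library, whereas the astrocyte markers GFAP and S100B had at most 4 and 2 counts and AQP4 had none. The sum of these markers ranged from 76160 to 77780 normalized counts in GFP and from 50430 to 51190 in RBFOX1 libraries, most of it VIM. The markers did not move one way, since VIM, CD44 and OLIG2 were lower, with log2 fold changes of -0.65, -0.90 and -0.50, and NES and SOX2 higher, with 0.60 and 2.53. The 4 neuronal markers summed to 1343 to 1487 normalized counts in GFP and 666 to 696 in RBFOX1 libraries, most of it SYT1, whereas RBFOX3 and SNAP25 had at most 3 and 2 counts. SYT1 was lower in RBFOX1 cells, with a log2 fold change of -1.17 (adjusted p = 3.62e-12, edgeR). TUBB3 had means of 62.9 and 82.3 normalized counts in GFP and RBFOX1 cells and did not pass (adjusted p = 0.0635, edgeR), although its libraries did not overlap. The 2 blood cell markers were low and summed to 14.01 to 32.78 normalized counts in GFP and 50.8 to 71.1 in RBFOX1 libraries. PTPRC had 38, 10 and 13 counts in the GFP and 27, 58 and 74 counts in the RBFOX1 replicates. It was higher in RBFOX1 cells, with a log2 fold change of 1.82 (adjusted p = 1.79e-06, edgeR) and no overlap. CD14, at 1 to 16 counts, had a log2 fold change of -0.90 and did not pass (adjusted p = 0.222, edgeR). Whether these shifts have a part in the rise of the CPA genes was not tested. In bulk RNA, a change in the number of cells that express a gene and a change in its RNA per cell cannot be told apart.

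The protein-coding genes with the pattern most like that of CPA1 were looked for by Euclidean distance over the 6 libraries on the scale of log2 of the normalized count plus 1. The nearest were PPP1R1B at a distance of 1.42, CUZD1 at 2.55, LCNL1 at 2.97, POSTN at 3.57 and CABP7 at 3.63. PPP1R1B, for example, was at 0 in all GFP libraries and reached 113, 163 and 216 counts in the RBFOX1 replicates. For CPA5 they were SULT1C2 at 1.27, ESPN at 1.32, ANGPTL7 at 1.34, METTL7A at 1.38 and COL5A3 at 1.44, all with 4 counts or fewer in every GFP library. None of these 10 genes lies on chromosome 7. The likeness is mainly that of genes near 0 in GFP cells with a similar level in RBFOX1 cells, and the 6 libraries form only 2 groups.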

How the data were processed

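Gene-level RNA-seq counts of 3 GFP and 3 RBFOX1 libraries of A172 cells were used. Reads were aligned by the authors to GRCh38 with HISAT2 and counted with HTSeq-count in intersection-strict mode on Ensembl release 87 genes, and the count of each gene was deposited without normalization. Libraries were stranded, and the deposited files mark counting on the reverse strand. The 5 summary lines of each file entered neither library sizes nor tests, and ambiguous read pairs, which include those in same-strand overlaps, made up 6.89 to 9.35% of the total. A table of the authors' own DESeq2 comparison (mean, fold change, p-values) was not used.

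Counts were scaled with TMM and fitted with edgeR 4.0.16 (R 4.3.3), quasi-likelihood, two-sided, on a model with the construct and no covariate. Genes needed at least 10 counts in all. A 95% interval is the log2 fold change with its standard error on the fit's degrees of freedom. Where every GFP library held 3 counts or fewer, the mean in RBFOX1 cells was divided by the mean worth of 3 counts per library as a bound. DESeq2 1.42.0, other scalings, other filters, a replicate block, the omission of each replicate and other windows were the alternatives. The procedure was tested on simulated data.

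Symbols, positions and transcripts came from GENCODE release 44 on GRCh38, and 98.1% of gene identifiers matched. Coding sequences were aligned with Biopython 1.88. The members and lists were chosen with earlier results of these data known. Some results are not reported here. Named genes were the members, genes within 1 Mb of CPA1 past the threshold whose log2 fold change was 1 or more in size, list genes past the threshold, and the 5 genes nearest in pattern to CPA1 and to CPA5. Whether replicate numbers pair the libraries was checked by correlating the deviations of same-numbered libraries from their group means. No label names a batch, and p-values measure the spread between these libraries.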

Additional observations from a re-analysis of the deposited data

How the results depend on the processing

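The log2 fold changes of CPA4 (4.38 to 4.47) and COPG2 (1.23 to 1.38) stayed past the threshold and that of CEP41 (0.054 to 0.13) stayed short of it under all 12 alternatives, namely RLE and upper-quartile scaling, DESeq2, no filter, edgeR's own filter, the replicate block and the omission of each replicate. KLF14 was past it in none, and its estimate ran from -0.010 without GFP replicate 2 to 0.51 without GFP replicate 1. The lower bound of CPA1 lay between 102.6 without GFP replicate 1 and 136.2 without GFP replicate 2, since it depends on the depth of the GFP libraries, and that of CPA5 between 15.5 and 20.5. Leaving out CPA1 and CPA5, a window of 0.5 Mb held 3 higher and 1 lower of 10 tested genes, and a window of 2 Mb held 8 higher and 14 lower of 51. Omitting each replicate left 5 higher and 2 or 3 lower within 1 Mb, 5 or 6 family genes higher and 2 lower, and 2 acinar genes higher and 2 lower. MKLN1-AS was lost with DESeq2 (adjusted p = 0.14), and AEBP1 was removed by edgeR's own filter. In edgeR, AGBL3 passed without GFP replicate 1 (adjusted p = 0.0103), CPZ without RBFOX1 replicate 2 (adjusted p = 0.0323) and NR5A2 without RBFOX1 replicate 3 (adjusted p = 0.0365). GATA6 passed as lower with upper-quartile scaling (adjusted p = 0.046, edgeR) and with no filter (adjusted p = 0.0148, edgeR). It also passed without GFP replicate 2 (adjusted p = 0.0110, edgeR) or RBFOX1 replicate 3 (adjusted p = 0.0204, edgeR). The cause of these changes was not tested. Same-numbered GFP and RBFOX1 libraries did not deviate together (Pearson's r across genes of -0.172, 0.0348 and -0.0568). No pairing by number was seen, although so few libraries cannot show that there is none. With the replicate block, 4588 genes were higher and 4458 lower, compared with 4869 and 4711 without it, and within 1 Mb the counts were 5 and 3. The block moved NR5A2 (adjusted p = 0.0431) and GATA6 (adjusted p = 0.0407) past the threshold. Depth limits what can be said of MEST, TSGA13 and KLF14, which had few or no counts.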
